A study of Mus musculus with 2 samples.

Results

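The 10 genes described here are Myc, the D-type cyclin genes Ccnd1, Ccnd2 and Ccnd3, their kinase partners Cdk4 and Cdk6, and the inhibitor genes Cdkn1a, Cdkn1b, Cdkn1c and Cdkn2a. They were chosen by name, from what they do at the entry to the cell cycle, with earlier results of these data known. They are 10 of the 19320 features in the deposited single-cell table. The study sequenced dissociated mouse prostate in 2 samples, 1 holding PIN (prostatic intraepithelial neoplasia, a precursor lesion) and 1 holding PCa (prostatic adenocarcinoma). Both came from R26 mTmG/hAR:Osr1 Cre/+ mice on a mixed C57BL/6 and 129S1/SvImJ background, with the PIN tissue from the younger animals. In these mice Osr1-Cre, active in embryonic Osr1-expressing cells and passed on to their descendants, switches on a human androgen receptor transgene (hARtg) together with a membrane-bound green fluorescent protein (mGFP). Both samples carried every one of these alleles, so no sample without the transgene or without Cre served as a control. The deposited table pooled the cells of both samples under 2 barcode suffixes, here called set 1 and set 2. The labels do not say which suffix is PIN and which is PCa, so no cell was assigned to either lesion. With 1 library per set, every comparison between sets compares 2 libraries, in which library, lesion and age cannot be told apart.

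Entry into DNA synthesis is gated by the retinoblastoma protein, which holds E2F transcription factors in check until cyclin-dependent kinases phosphorylate it. D-type cyclins bind CDK4 and CDK6 and begin that phosphorylation. The CIP/KIP proteins p21, p27 and p57 bind cyclin-CDK complexes broadly, whereas the INK4 proteins, p16 among them, bind CDK4 and CDK6 and keep cyclin D away. MYC, which works as a dimer with MAX at E-box sequences, is a growth-promoting transcription factor whose gene is often gained or overexpressed in prostate cancer, and in the prostate epithelium the basal layer and the secretory luminal layer are the main cell types in which this control has been studied.

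Set 1 held 6332 cells and 134850345 UMIs (unique molecular identifiers, each 1 captured RNA molecule), and set 2 held 9410 cells and 187280119 UMIs. After removal of 155 and 175 likely doublets, cells were classed by markers: 2767 and 7871 luminal, 1679 and 268 basal, 1042 and 252 leukocyte, 98 and 233 fibroblast, 40 and 161 endothelial, and 32 and 27 smooth muscle cells in sets 1 and 2. The 2 sets shared 67 cell barcodes. Luminal cells of the 2 sets differed in more than the genes described here. The summed level of 5 secretory luminal markers (Pbsn, Tgm4, Msmb, Spink1 and Hoxb13) was 15191 CPM (counts per 1000000 UMIs) in luminal cells of set 1. It was 1554 CPM in those of set 2. The sum of 6 basal markers was 661 and 31.3 CPM, and most of it in set 1 lay in Krt15 and Krt17. These were at 308 and 327 CPM in set 1 and at 10.6 and 5.79 CPM in set 2. Krt14 was at 17.9 and 7.16 CPM and Col17a1 at 2.65 and 0.78 CPM. Krt5 was nearly level, at 5.68 and 4.96 CPM, and Trp63 was higher in set 2, at 0.105 and 2.04 CPM. The luminal markers used for the gate also differed between the sets, in both directions. Krt8 was at 7014 and 8253 CPM in luminal cells of sets 1 and 2, and Krt18 at 5548 and 7595 CPM. Krt19 was at 5334 and 746 CPM, Epcam at 2321 and 493 CPM, Cldn7 at 1204 and 186 CPM and Cd24a at 2175 and 1299 CPM. Median depth was 27966 and 16582 UMIs per luminal cell, so shares of cells with a UMI are given after each cell was thinned to 3000 UMIs. EGFP, the table's name for mGFP, gave a gauge of RNA from broken cells: leukocytes, in which the reporter should be near absent, held 46.5 CPM of EGFP in set 1 and 421 CPM in set 2, against 1014 and 10100 CPM in luminal cells. All intervals below are exact 95% intervals that cover counting error only, and no p-value is given, since cells of 1 library are not replicates.

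The promoters of 6 of the 10 genes were in the RefSeq table used here (build GRCm38.p6), and 3 windows are shown. The Cdk4 window is shown for its letters alone, which say nothing about the counts. The Cdkn2a windows are shown because the counts cannot tell the transcripts of its starts apart. The 250 bases before the start of Cdk4 (the gene spans chr10:127063535-127067288) are given with every CACGTG, the E-box letters that MYC with MAX binds, in capitals. The windows before both starts of Cdkn2a (chr4:89274473-89294619, minus strand) are given with the E2F-type letters TTTCCCGC in capitals. The outer start is that of the p19ARF transcript and the inner start that of the p16INK4a transcript.
Cdk4, chr10:127063285-127063534, plus strand: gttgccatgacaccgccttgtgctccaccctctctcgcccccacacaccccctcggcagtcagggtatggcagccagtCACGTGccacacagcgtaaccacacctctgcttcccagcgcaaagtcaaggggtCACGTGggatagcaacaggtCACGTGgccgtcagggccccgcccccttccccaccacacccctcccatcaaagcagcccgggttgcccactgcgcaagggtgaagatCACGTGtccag
Cdkn2a outer start, chr4:89294620-89294869, minus strand: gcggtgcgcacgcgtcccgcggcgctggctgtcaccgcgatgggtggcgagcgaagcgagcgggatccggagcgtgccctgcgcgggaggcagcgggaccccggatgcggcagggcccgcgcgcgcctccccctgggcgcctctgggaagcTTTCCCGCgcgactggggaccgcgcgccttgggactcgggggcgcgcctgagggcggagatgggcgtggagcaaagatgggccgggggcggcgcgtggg
Cdkn2a inner start, chr4:89282193-89282442, minus strand: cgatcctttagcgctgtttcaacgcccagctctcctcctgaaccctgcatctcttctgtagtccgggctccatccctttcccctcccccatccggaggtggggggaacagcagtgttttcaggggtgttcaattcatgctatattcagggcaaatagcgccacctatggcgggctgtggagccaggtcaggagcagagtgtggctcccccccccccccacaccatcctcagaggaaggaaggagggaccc

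The Cdk4 window held CACGTG 4 times, with first bases 172, 118, 98 and 11 bases before the start. These letters read the same on both strands. Of all 32851 RefSeq windows of this length, 6.02% held at least 1 CACGTG and 7 windows (0.0213%) held 4 or more. Among the other windows of these genes, the one before Cdk6 held it once. The letters TTTCCCGC were found once, 99 bases before the outer Cdkn2a start, and in 0.895% of all windows on either strand. The related letters TTTCGCGC, TTTGGCGC and TTTGCCGC were in none of the genes' windows. A match describes the letters and is no evidence of binding. Both Cdkn2a transcripts end in the same exons, and the chemistry read only the 3' ends of RNAs, so the Cdkn2a counts below cannot tell p16INK4a from p19ARF.

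Myc was found at similar levels in both epithelial layers and at far lower levels in leukocytes. Luminal cells held 199 CPM in set 1 (interval 196 to 202) and 273 CPM in set 2 (271 to 276), and basal cells held 203 CPM (197 to 208) and 268 CPM (248 to 289). Within each set the luminal and basal intervals overlapped. Fibroblasts held 255 and 214 CPM, endothelial cells of set 2 held 101 CPM, and leukocytes held 21.7 CPM (18.0 to 26.0) and 24.7 CPM (18.1 to 33.0). After thinning, a Myc UMI was found in 39.0% of luminal cells of set 1 and 50.1% of set 2, against 6.25% and 8.33% of leukocytes.

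The D-type cyclins divided the classes between them. Ccnd1, the cyclin most often linked to epithelial growth signals, was at 55.5 CPM (54.0 to 57.1) in luminal cells of set 1, and in set 2 it was at 258 CPM (255 to 260). Its levels in basal cells were 65.0 and 119 CPM. In set 2 luminal and endothelial cells, at 258 and 247 CPM, headed the order with overlapping intervals. Ccnd2, the main D-type cyclin of lymphocytes, was near absent from luminal cells, with 5.0 CPM (4.54 to 5.5) in set 1 and 1.07 CPM (0.92 to 1.24) in set 2. Basal cells held 60.4 and 66.5 CPM of it, and basal cells and fibroblasts did not differ beyond their intervals in either set. Leukocytes of set 1 held 163 CPM of Ccnd2 and those of set 2 held 16.7 CPM. Ccnd3, the most widely shared of the D-type cyclins, ranged from 14.4 CPM in basal cells to 77.5 CPM in fibroblasts of set 1 among classes of at least 50 cells, and from 15.1 CPM in leukocytes to 70.0 CPM in fibroblasts of set 2.

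The kinase genes Cdk4 and Cdk6 ordered the epithelial layers in opposite ways. Cdk4 was higher in luminal cells, with 95.3 CPM (93.3 to 97.4) in set 1 and 132 CPM (130 to 134) in set 2, than in basal cells, with 64.4 CPM (61.4 to 67.5) and 76.9 CPM (66.4 to 88.5). Cdk6 was higher in basal cells, with 117 CPM (113 to 122) and 76.5 CPM (66.1 to 88.1), than in luminal cells, with 79.3 CPM (77.4 to 81.2) and 37.3 CPM (36.4 to 38.3). Neither pair of intervals overlapped in either set. In set 2 leukocytes held the most Cdk6, at 143 CPM. Fibroblasts held the least Cdk6 in both sets among classes of at least 50 cells, at 16.7 and 34.6 CPM, although in set 2 their interval overlapped that of luminal cells.

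Cdkn1a, which encodes p21, an inhibitor that p53 induces, was the inhibitor gene with the most UMIs in every class of at least 50 cells. Its level was 297 and 223 CPM in luminal cells and 411 and 272 CPM in basal cells, and endothelial cells of set 2 held 890 CPM (847 to 935). Cdkn1b, which encodes p27, was low in the epithelium, at 13.9 and 10.5 CPM in luminal cells and 29.2 and 13.5 CPM in basal cells, and reached 177 CPM (166 to 188) in leukocytes of set 1. Cdkn1c encodes p57 and is an imprinted gene. It was at 7.91 CPM (7.33 to 8.53) in luminal cells of set 1, the lowest of the classes of that set with at least 50 cells, and at 113 CPM (112 to 115) in luminal cells of set 2, the highest of that set. The share of luminal cells of set 2 with a Cdkn1c UMI was 23.8% after thinning (22.9% to 24.8%), against 2.63% of leukocytes (0.97% to 5.64%), and 58.9% and 5.16% before thinning, at median depths of 16582 and 6836.5 UMIs.

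Cdkn2a was at or near the lowest level of the inhibitor genes in the epithelium, again in 3' tags. Luminal cells held 6.07 and 10.1 CPM and basal cells 2.78 and 5.18 CPM. A Cdkn2a UMI was found in 2.74% of thinned luminal cells of set 2 (2.39% to 3.12%). Of 228 thinned leukocytes of that set 2.63% held one (0.97% to 5.64%), and these intervals overlapped. Leukocytes held 8.86 and 8.61 CPM in sets 1 and 2. Fibroblasts held the most in both sets among classes of at least 50 cells, with 39.3 CPM (27.1 to 55.3) and 44.6 CPM (33.9 to 57.6), resting on 33 and 58 UMIs.

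**Figure D1:**
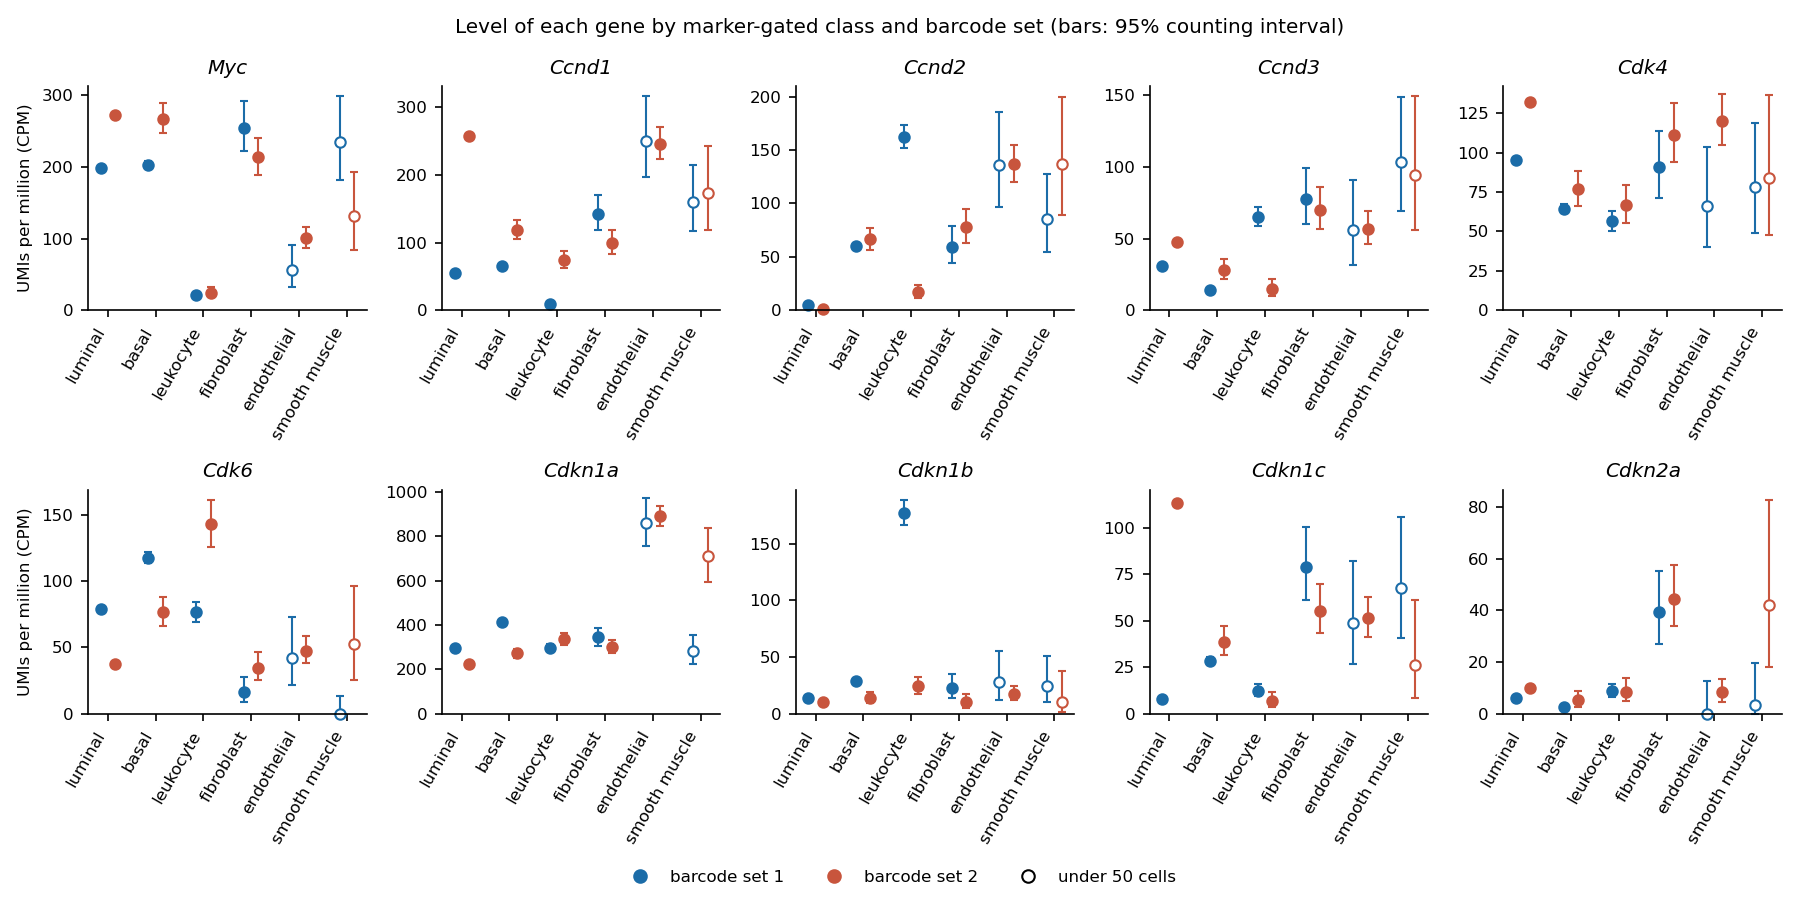
Level of each of the 10 genes (y axis, CPM, linear from 0) in the 6 marker-gated classes (x axis) of set 1 (blue) and set 2 (red), with exact 95% Poisson intervals as bars and open points for classes under 50 cells. Ccnd1 and Cdkn1c of luminal cells stood at 258 and 113 CPM in set 2 against 55.5 and 7.91 CPM in set 1, and Ccnd2 was near 0 in luminal cells of both sets.

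Taken as shares of the UMIs of a gene family, the classes kept different mixes. These are shares of 3' tags, which are not divided by transcript length. Of the D-type cyclin UMIs, Ccnd1 made up 60.9% in luminal cells of set 1 and 84.2% in set 2, and Ccnd2 made up 5.48% and 0.350%. In basal cells Ccnd2 took 43.2% and 31.1%. The leukocytes of the 2 sets differed in kind: 720 of set 1 carried Cd3e, a T-cell receptor gene, without Lyz2, a myeloid gene, and 74.7% of their D-type cyclin UMIs were Ccnd2 and 0.583% Ccnd1. Of set 2, 196 leukocytes carried Lyz2 without Cd3e, and there Ccnd1 took 78.5%.

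Among the CIP/KIP genes Cdkn1a took 93.2% of the UMIs of luminal cells in set 1 and 64.3% in set 2, and Cdkn1c took 2.48% and 32.7%. In luminal cells of set 2 with little EGFP, Cdkn1c took 6.0%. Cdkn1b took 36.3% in leukocytes of set 1 and under 7% in each other stratum of the bar plot of family mixes. Cdk4 took 54.6% and 77.9% of the UMIs of the 2 kinase genes in luminal cells and 35.4% and 50.1% in basal cells.

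**Figure D2:**
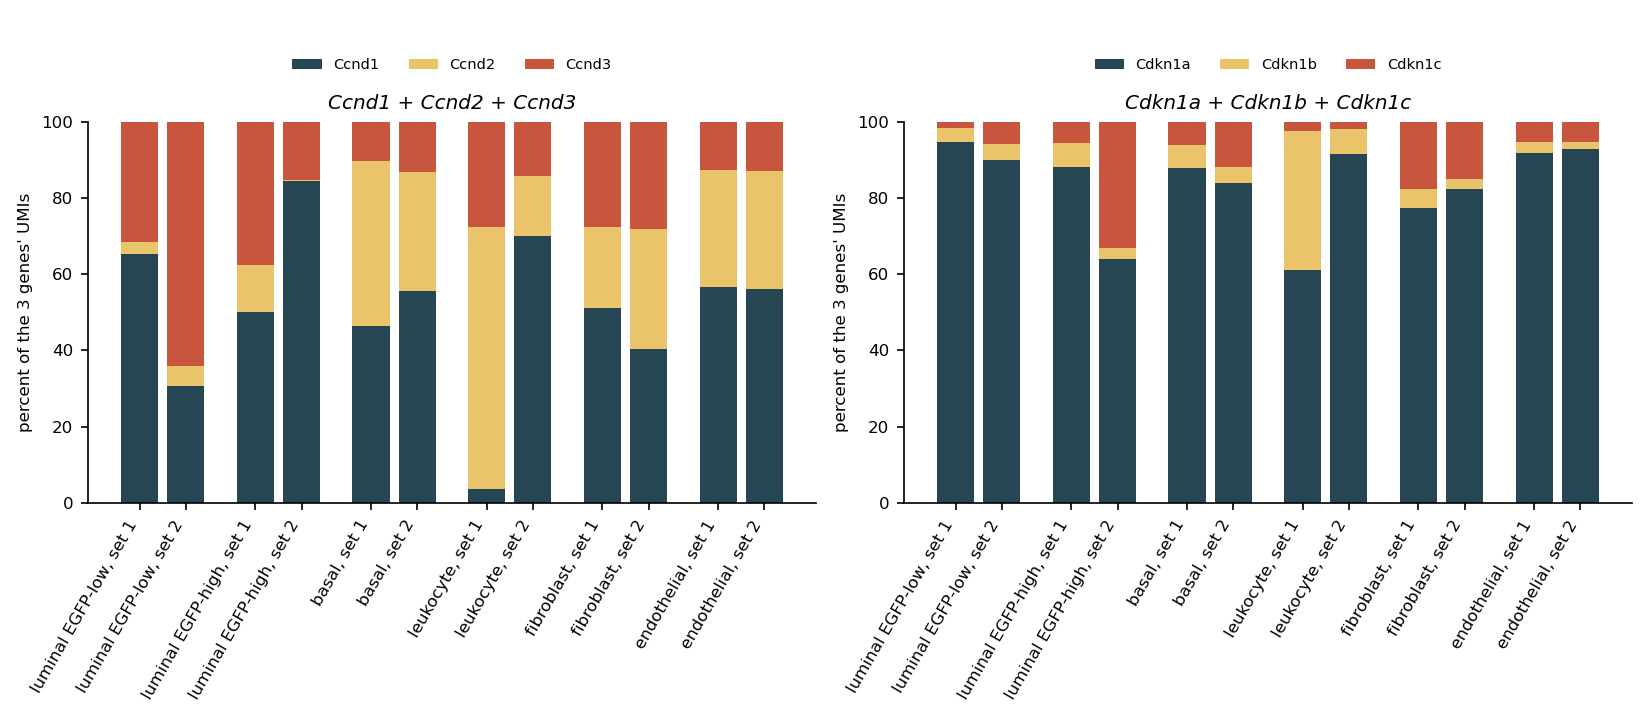
Share of family UMIs (y axis, percent) taken by each D-type cyclin gene (left) and each CIP/KIP gene (right) in luminal cells by EGFP level and in 4 other classes, set 1 and set 2 side by side (x axis). Ccnd2 fills 68.7% of the bar of set 1 leukocytes and 0.304% of that of EGFP-high luminal cells of set 2, and Cdkn1c fills 33.1% of the latter.

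The comparison of luminal cells between the sets asked which of these genes stood apart in the 2 libraries. Ccnd1 was 4.64-fold and Cdkn1c 14.3-fold higher in set 2, and Cdk6 was 2.12-fold higher in set 1. A gene was counted as past 2-fold when the log2 ratio of its summed CPM was 1 or more in size and its mean over both sides was at least 5 CPM, which 9 of the 10 genes met. In luminal cells 2 of the 9 were past 2-fold higher in set 2, where 9.88% of 8968 genes were, and 1 was past 2-fold lower, where 17.1% were, 27% either way.

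Ccnd1 had a log2 ratio, set 2 over set 1, of 2.21 (2.17 to 2.26), and Cdkn1c of 3.84 (3.73 to 3.95). Per cell, the median Ccnd1 level was 17.6 CPM in set 1 and 147 CPM in set 2, and the upper quartile was 73.0 and 356 CPM. For Cdkn1c the median was 0 in set 1 and 49.7 CPM in set 2. The Cdk6 log2 ratio was -1.09 (-1.13 to -1.04), and it came to -0.92 with a stricter marker gate and -0.88 without cells holding both Krt4 and Ly6d, markers of the proximal or urethral epithelium, which ended its count as past 2-fold. Ccnd2, at a mean under 5 CPM, had a log2 ratio of -2.22 (-2.48 to -1.97), which was -1.31 with the stricter gate. The other genes moved by less than 2-fold. The log2 ratio was 0.46 for Myc, 0.47 for Cdk4, 0.63 for Ccnd3 and 0.73 for Cdkn2a. It was -0.41 for Cdkn1a and -0.40 for Cdkn1b. The median over all genes tested was -0.17.

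Luminal cells were then split by EGFP within each set. EGFP-high cells had more EGFP per 10000 UMIs than 95% of the leukocytes of their set, a limit of 3.07 in set 1 and 12.2 in set 2. EGFP-low cells were at or under the leukocyte median, which was 0 in set 1 and 3.12 in set 2. By this split 509 luminal cells of set 1 and 7611 of set 2 were EGFP-high, and 1348 and 175 were EGFP-low. The low limit of set 2 thus lay above the high limit of set 1. EGFP-high cells held 4940 and 10395.5 CPM of EGFP in sets 1 and 2, and EGFP-low cells 0 and 135 CPM. ARQ, taken here as the hARtg transgene, was at 687 and 1547 CPM in EGFP-high cells and 28.3 and 300 CPM in EGFP-low cells. Among EGFP-high cells, Ccnd1 was at 57.4 CPM in set 1 and 265 CPM in set 2, a log2 ratio of 2.21 (2.11 to 2.30). Cdkn1c was at 12.9 and 116 CPM, a log2 ratio of 3.17 (2.98 to 3.37). Cdkn2a was at 3.35 and 10.3 CPM, a log2 ratio of 1.62 (1.25 to 2.03), and Ccnd2 at 14.1 and 0.953 CPM, a log2 ratio of -3.88 (-4.18 to -3.59) that came to -2.83 with the stricter gate. These 3 genes higher and 1 lower in set 2, of 10 that met the filter, stood beside 9.65% and 14.8% of 8894 genes, 24.5% either way. Myc and Cdk4 had log2 ratios of 0.79 and 0.84 in EGFP-high cells.

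Among EGFP-low luminal cells the order of the sets turned for Ccnd1, which was at 54.6 CPM in set 1 and 17.6 CPM in set 2, a log2 ratio of -1.63 (-2.02 to -1.27). Cdk6, at 81.0 and 23.1 CPM, and Cdkn1a, at 325 and 148 CPM, were also past 2-fold lower in set 2, with log2 ratios of -1.81 and -1.13. The Cdkn1a value was -0.86 after thinning. For this and every thinned EGFP ratio below, the EGFP groups were formed anew from the thinned counts. None of the genes was past 2-fold higher there, and 3 of the 8 that met the filter were past 2-fold lower, beside 4.8% and 9.91% of 8786 genes, 14.7% either way. Cdkn1c had a log2 ratio of 0.73 (0.18 to 1.24) on 36 UMIs in set 2. The EGFP-low luminal cells of set 2 held 27266 CPM of the 5 secretory luminal markers and those of set 1 held 14265 CPM. EGFP was at 135 CPM in set 2 and 0 CPM in set 1. ARQ was at 300 and 28.3 CPM, beside 75.3 CPM in leukocytes of set 2. The 2 groups of EGFP-low cells were thus not matched in reporter or transgene RNA. The part of these differences in the ratios was not tested.

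In basal cells 9 of the 10 genes met the filter, none was past 2-fold higher in set 2 and 1 was past 2-fold lower, beside 4.44% and 4.41% of 8568 genes, 8.85% either way. That gene was Cdkn1b, at 29.2 CPM in set 1 and 13.5 CPM in set 2, a log2 ratio of -1.11 (-1.65 to -0.61) on 34 UMIs in set 2. When cells were thinned to 3000 UMIs it was -0.58. Ccnd1 had a log2 ratio of 0.87 (0.69 to 1.05) and Ccnd3 of 0.98 (0.59 to 1.35). Cdk6 and Cdkn1a, at -0.62 and -0.60, lay on the same side as in luminal cells. Cdkn1c was at 28.3 and 38.6 CPM, a log2 ratio of 0.45 (0.13 to 0.75), beside 3.84 in luminal cells. The basal value turned to -0.34 when every cell weighed the same, -0.011 with the stricter gate and -0.14 after thinning. The difference between the layers was not tested.

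**Figure D3:**
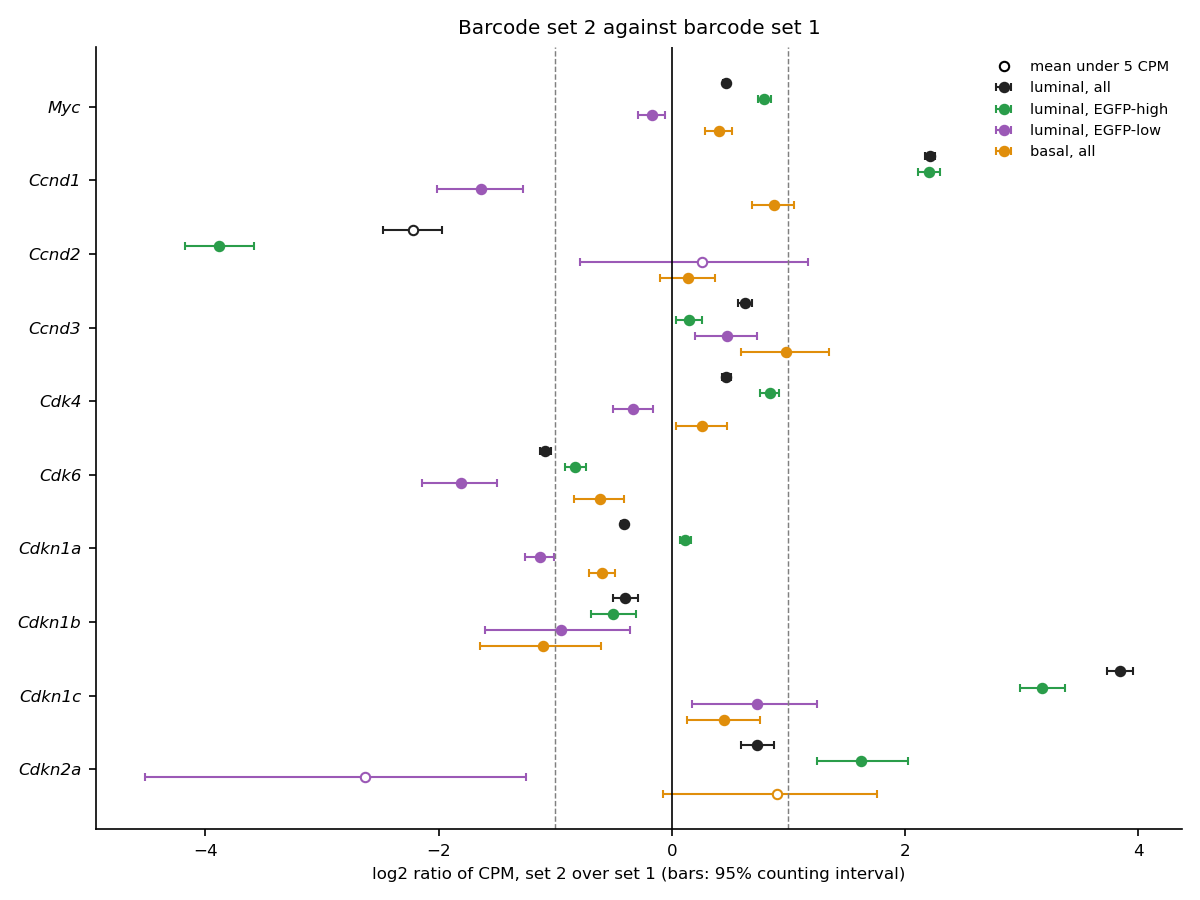
Log2 ratio of CPM, set 2 over set 1 (x axis), of each of the 10 genes (y axis) in all luminal, EGFP-high luminal, EGFP-low luminal and basal cells, with 95% counting intervals, dashed lines at 2-fold and open points for genes with a mean under 5 CPM. Cdkn1c of luminal cells lies farthest to the right, at 3.84, and Ccnd1 lies at 2.21 in EGFP-high and -1.63 in EGFP-low luminal cells.

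The split by EGFP within a set compared luminal cells with more and less reporter, which marks cells that Cre has acted on. Its outcome was not alike in the 2 sets. In set 1 EGFP-high luminal cells held 14.1 CPM of Ccnd2 and EGFP-low cells 2.52 CPM, a log2 ratio of 2.48 (2.13 to 2.84). Cdkn1c was at 12.9 and 5.98 CPM, a log2 ratio of 1.11 (0.83 to 1.38), and Cdkn2a at 3.35 and 6.80 CPM, a log2 ratio of -1.02 (-1.46 to -0.60). All 10 genes met the filter, and these 2 higher and 1 lower stood beside 3.48% and 2.67% of 8848 genes, 6.15% either way.

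The Cdkn1c count in set 1 was lost when cells were thinned, at a log2 ratio of 0.56, and the Cdkn2a count was lost with a stricter marker gate, at -0.80, and moved to -1.72 after thinning. Ccnd2 kept a log2 ratio of at least 2.09 in the alternatives run. The summed level of the 6 basal markers was 806 CPM in EGFP-high and 617 CPM in EGFP-low luminal cells of set 1, and that of 4 proximal or urethral luminal markers (Krt4, Krt7, Ly6d and Psca) was 6996 and 1659 CPM. Their part in the Ccnd2 difference was not tested. Myc, Cdk4 and Cdkn1a were lower in EGFP-high cells of set 1, with log2 ratios of -0.37 (-0.43 to -0.30), -0.46 (-0.55 to -0.37) and -0.65 (-0.70 to -0.60), while Ccnd1, at 57.4 and 54.6 CPM, had a log2 ratio of 0.07 (-0.04 to 0.18).

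In set 2 EGFP-high luminal cells held 265 CPM of Ccnd1 and EGFP-low cells 17.6 CPM, a log2 ratio of 3.91 (3.56 to 4.29). Cdkn1c was at 116 and 9.90 CPM, a log2 ratio of 3.55 (3.09 to 4.07). Cdkn2a was at 10.3 and 1.10 CPM, resting on 1714 and 4 UMIs, a log2 ratio of 3.23 (1.87 to 5.11). Of the 9 genes that met the filter these 3 were past 2-fold higher and none was past 2-fold lower, beside 11.4% and 14.7% of 8773 genes, 26.1% either way. The Cdkn2a log2 ratio came to 1.86 when every cell weighed the same and to 0.995 after thinning, just under 2-fold.

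The other genes of set 2 also lay above 0 except Ccnd2. Log2 ratios were 0.60 (0.49 to 0.71) for Myc, 0.71 (0.54 to 0.88) for Cdk4, 0.70 for Cdk6, 0.60 for Cdkn1a and 0.68 for Cdkn1b, of which Cdkn1b turned to -0.47 after thinning. Ccnd2, at 0.953 and 3.02 CPM, was under the filter. The 5 secretory luminal markers summed to 833 CPM in EGFP-high and 27266 CPM in EGFP-low luminal cells of set 2, so the 2 sides also differed in secretory marker content. The part of that difference in the ratios was not tested.

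**Figure D4:**
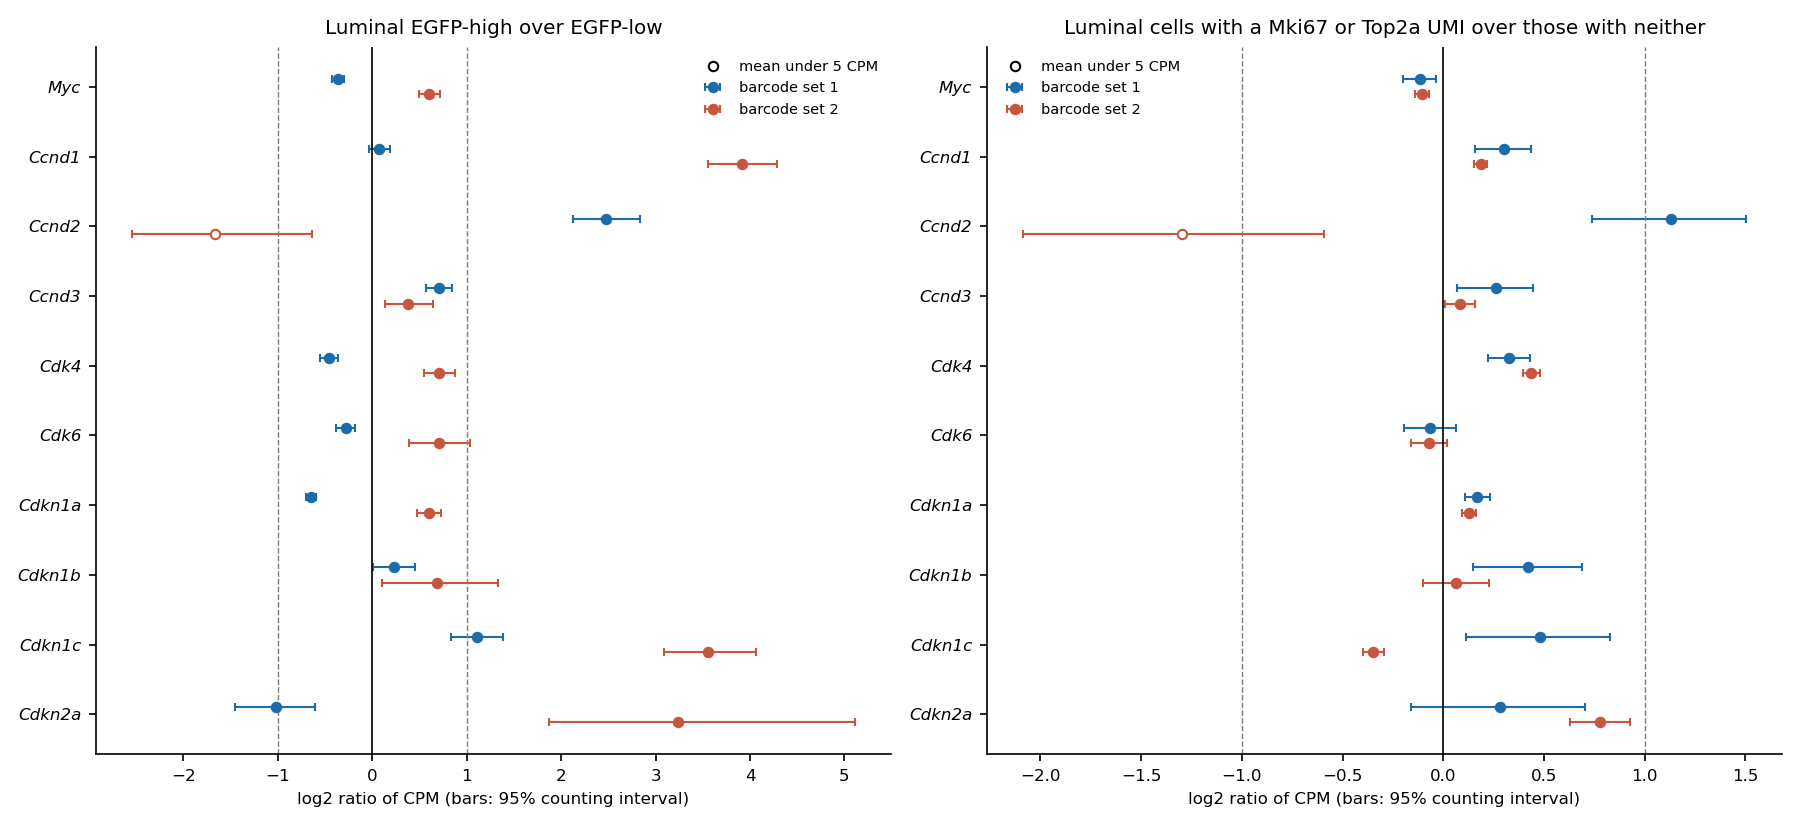
Log2 ratio of CPM (x axis) of each of the 10 genes (y axis) in luminal cells, EGFP-high over EGFP-low (left) and with over without a Mki67 or Top2a UMI (right), for set 1 (blue) and set 2 (red), with 95% counting intervals, dashed lines at 2-fold and open points for genes with a mean under 5 CPM. Left, Cdkn1a lies at -0.65 in set 1 and 0.60 in set 2. Right, all points but those of Ccnd2 lie between the dashed lines.

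EGFP-high luminal cells were further divided into 3 bins of equal cell number by EGFP. In set 2, with 2537 cells in each bin, Myc was at 237 CPM in the lowest bin, 292 CPM in the middle bin and 299.8 CPM in the highest bin. Cdk4 ran the other way, with 154, 133 and 111 CPM, as did Cdk6, with 40.5, 38.5 and 33.1 CPM, and Cdkn2a, with 11.9, 10.3 and 8.65 CPM. Ccnd1 was at 285 and 279.9 CPM in the lower bins and 223 CPM in the highest. Cdkn1c, at 109.8, 125 and 113 CPM, had no single direction. In set 1, with 169 or 170 cells in each bin, Myc was at 161, 151 and 168 CPM and Cdk4 at 73.6, 80.5 and 68.8 CPM, and neither ran in 1 direction. In set 2 the share of thinned cells with a Mki67 or Top2a UMI also differed over the bins, at 6.43%, 3.80% and 2.11% from lowest to highest EGFP.

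**Figure D5:**
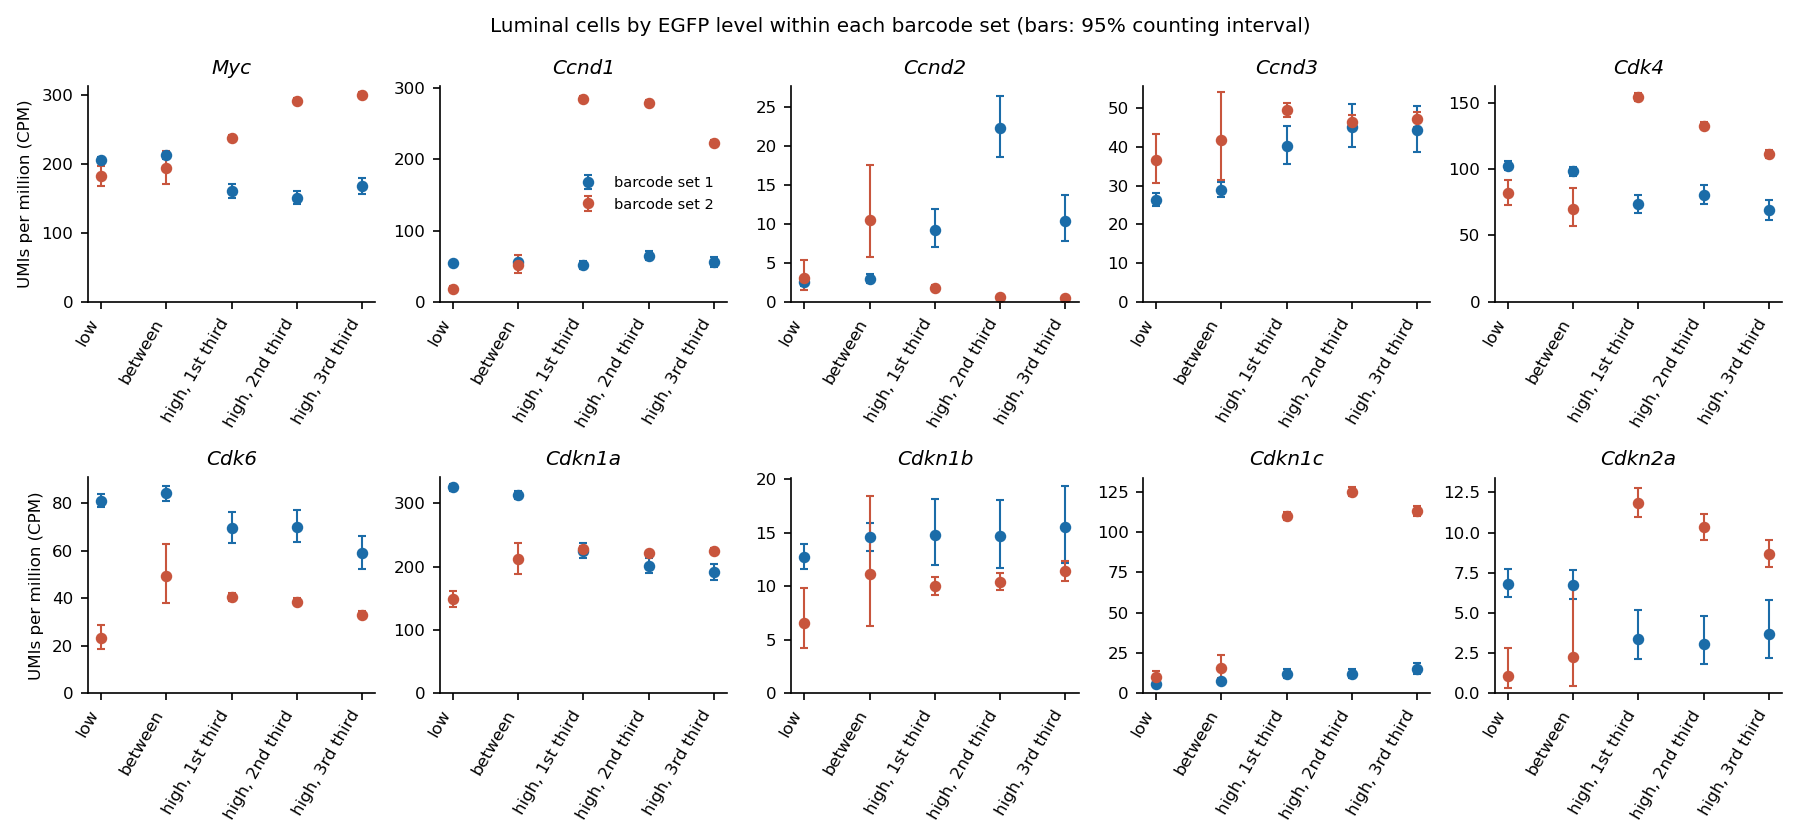
Level of each of the 10 genes (y axis, CPM, linear from 0) in luminal cells by EGFP level (x axis: low, between the limits, and the 3 bins of EGFP-high cells) in set 1 (blue) and set 2 (red), with exact 95% Poisson intervals. Ccnd1 of set 2 steps from 17.6 CPM in EGFP-low cells to 285 CPM in the lowest EGFP-high bin, and Myc and Cdk4 of set 2 run in opposite directions over the 3 bins.

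In basal cells of set 1 none of the 9 genes that met the filter was past 2-fold between 392 EGFP-high and 884 EGFP-low cells, beside 1.88% higher and 1.86% lower of 8317 genes, 3.74% either way. The largest difference was that of Cdkn1a, at 287 and 453 CPM, a log2 ratio of -0.66 (-0.73 to -0.58). In set 2 the sides held 127 and 76 cells. Cdkn1b, on 20 and 4 UMIs, and Cdkn1c, on 70 and 16 UMIs, were past 2-fold higher in EGFP-high cells, 2 of 9 genes beside 6.29% of 8622 genes, and none was lower, beside 6.24%, or 12.5% either way. The interval of Cdkn1b spanned 0, from -0.29 to 3.30, and the Cdkn1c log2 ratio of 1.10 (0.30 to 1.98) came to -0.06 with a stricter marker gate and 0.68 after thinning. Cdkn2a was found in 13 UMIs in EGFP-high basal cells and in none of the EGFP-low cells. With the 0 set to a floor of 3 UMIs it was 2.12-fold higher, and the lower limit of its log2 interval was 0.58. Its mean was under 5 CPM, so it was not counted. These UMIs came from 2.36% of the 127 cells, and the log2 ratio was -0.48 when every cell weighed the same and 0.997 with Dcn kept in the gate.

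Cells with at least 1 UMI of Mki67 or Top2a, genes of proliferating cells, were compared with cells holding neither. In luminal cells these were 176 of 2767 in set 1 and 1065 of 7871 in set 2. The share was 6.36% and 13.5% as counted, and 1.38% (0.98% to 1.89%) and 4.0% (3.57% to 4.45%) after thinning. These cells were deeper, with median UMIs of 37579.5 against 27461 in set 1 and 30179 against 15060 in set 2.

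Cdk4 was higher with a Mki67 or Top2a UMI in both sets. It was at 117 and 93.4 CPM in set 1, a log2 ratio of 0.33 (0.22 to 0.43), and at 166 and 123 CPM in set 2, a log2 ratio of 0.44 (0.39 to 0.48). Ccnd1 was at 67.1 and 54.5 CPM, a log2 ratio of 0.30 (0.16 to 0.44), and at 285 and 250 CPM, a log2 ratio of 0.19 (0.15 to 0.22). Myc was slightly lower, at 184 and 200 CPM in set 1 and 258 and 277 CPM in set 2, with log2 ratios of -0.12 (-0.20 to -0.03) and -0.11 (-0.14 to -0.07). Cdk6 had intervals that spanned 0 in both sets.

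Of the inhibitors, Cdkn2a was at 15.03 and 8.76 CPM in set 2, a log2 ratio of 0.78 (0.63 to 0.93), and at 7.26 and 5.97 CPM in set 1, a log2 ratio of 0.28 (-0.16 to 0.70). Cdkn1c was lower with a Mki67 or Top2a UMI in set 2, at 93.3 and 119 CPM, a log2 ratio of -0.35 (-0.40 to -0.29). In set 1 it was at 10.7 and 7.67 CPM, a log2 ratio of 0.48 (0.11 to 0.83), which was -0.10 without cells holding both Krt4 and Ly6d. Cdkn1a had log2 ratios of 0.17 and 0.13.

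All 10 genes met the filter in set 1 and 1 of them, Ccnd2, was past 2-fold higher, with none lower, beside 1.54% and 0.134% of 8939 genes, 1.68% either way. The Ccnd2 log2 ratio of 1.13 (0.74 to 1.5) came to -0.29 with a stricter marker gate and -0.61 without cells holding both Krt4 and Ly6d. In set 2 none of 9 genes was past 2-fold in either direction, beside 2.25% and 0.511% of 8612 genes, 2.76% either way. Within the EGFP-high luminal cells of set 2, 1053 with a Mki67 or Top2a UMI against 6558 without, the log2 ratio was 0.43 for Cdk4, 0.75 for Cdkn2a and -0.38 for Cdkn1c, with none of 9 genes past 2-fold beside 2.29% higher and 0.256% lower of 8585 genes, 2.55% either way. Within the EGFP-low luminal cells of set 1, 67 against 1281, Ccnd1 had a log2 ratio of 0.50 (0.27 to 0.73) and Cdk4 of 0.33 (0.15 to 0.50), with none of 9 genes past 2-fold beside 2.68% and 0.595% of 8913 genes, 3.28% either way. Basal cells with a Mki67 or Top2a UMI numbered 39 and 11, under the 50 cells set for a side, and were not compared.

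The partners and targets of these genes in luminal cells were read from lists of 64 genes in 6 groups. Among the other INK4 inhibitors, Cdkn2b, the p15 gene next to Cdkn2a, was at 9.48 CPM in set 1 and 28.9 CPM in set 2, a log2 ratio of 1.61, and Cdkn2d, the p19INK4d gene, at 3.33 and 8.41 CPM, a log2 ratio of 1.33, while Cdkn2c, the p18 gene, was at 8.96 and 5.06 CPM. Thus 2 of 3 were past 2-fold higher in set 2, where 9.88% of all genes tested were. Of 12 genes of the Rb-E2F list 6 met the filter and none was past 2-fold, with a median log2 ratio of 0.03 against -0.17 over all genes. Of 10 genes of cyclin E, cyclin A, CDK2 and their activators 5 met it and none was past 2-fold.

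Of 14 genes of the MYC network 11 met the filter. Mycl, a MYC paralog, was past 2-fold higher in set 2, at 5.09 and 19.5 CPM, and Mxd1, which competes for MAX, past 2-fold lower, at 26.9 and 13.0 CPM, beside shares over all genes of 9.88% higher and 17.1% lower. Of 13 ribosome biogenesis and metabolic targets of MYC all met the filter, 4 had log2 ratios above 0 and 2 were past 2-fold lower in set 2, Odc1, the polyamine synthesis gene, at 114 and 48.0 CPM, and Nop56, a nucleolar gene, at 167 and 73.5 CPM. A count of 2 of 13 is near the 17.1% of all genes that were past 2-fold lower. Their median log2 ratio was -0.38, against -0.17 over all genes, beside the Myc log2 ratio of 0.46.

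All 12 genes of the p53 list met the filter, 10 with log2 ratios above 0. Sesn1 and Phlda3 were past 2-fold higher in set 2, at 2.45 and 12.2 CPM and at 21.5 and 52.1 CPM. Gadd45a, also of this list, was past 2-fold lower, at 109 and 27.6 CPM. The shares over all genes were 9.88% higher and 17.1% lower. The list's median log2 ratio was 0.39, against -0.17 over all genes, beside -0.41 for Cdkn1a, itself a p53 target.

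With against without a Mki67 or Top2a UMI, Ccne1, the cyclin E1 gene, was at 9.97 and 2.01 CPM in luminal cells of set 1, a log2 ratio of 2.31. Set 2 had 8.26 and 1.45 CPM, a log2 ratio of 2.51. The means of Ccne1 in set 2 and of E2f1 in set 1 were under 5 CPM, so these were not counted. E2f1, the founding E2F gene, had log2 ratios of 1.96 and 1.90, and Ccna2, the cyclin A2 gene, of 5.59 in set 2. In set 2 Cdkn2d was at 23.7 and 4.31 CPM and Cdkn2c at 10.1 and 3.71 CPM, so that 2 of the 3 other INK4 genes were past 2-fold higher, beside 2.25% of all genes, and Cdkn2b, at 30.7 and 28.4 CPM, had a log2 ratio of 0.11. Of the 13 MYC targets 12 had log2 ratios above 0 in set 2 and 5 of 13 in set 1, with medians of 0.16 and -0.01 beside 0.02 and -0.01 over all genes.

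The genes with the most similar pattern were found over 9 strata, the classes of at least 50 cells in each set, among 6056 genes with a mean of at least 20 CPM, by Pearson's r of log2(CPM + 1). The strata share libraries, and with 9 points many genes reach a high r. Myc was most like Eif1a (r = 0.98), Ccnd1 most like Sorbs2 (0.93), Ccnd2 most like Blmh (0.97) and Ccnd3 most like Alkbh5 (0.95). Cdk4 was most like Ppp5c (0.98), Cdk6 most like Med8 (0.95), Cdkn1a most like Macf1 (0.94) and Cdkn1b most like Spsb3 (0.96). Cdkn1c was most like Hspa1a (0.95) and Hspa8 (0.93), both heat-shock protein genes, and Cdkn2a most like Osr2 (0.95) and Pex5 (0.95).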

How the data were processed

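Single cells from dissociated PIN and PCa tissue were captured with 10x Chromium 3' v2 chemistry, and per the labels the reads were processed with Cell Ranger 3.1.0 against mm10. The deposited values are the authors' natural log of 1 plus UMIs per 10000. From them whole UMIs were recovered for 100% of values above 0 (relative tolerance 0.001), and 2 feature names were repeated. The 10 genes and the gene lists were chosen with earlier results of these data known. Doublets were scored with Scrublet in Scanpy 1.11.5 (score above 0.25). Cells were gated by mean marker levels scaled to their 99.9th percentile. The gate's limits were set after the markers' values were seen, and Dcn was left out because basal cells held it. Between the luminal and basal limits lay 355 and 118 epithelial cells, and 519 and 423 cells were ungated. UMIs were summed per side. CPM have exact Poisson intervals, ratios conditional binomial intervals and shares Clopper-Pearson intervals (SciPy 1.17.1). These were tested on simulated Poisson and binomial counts only. The simulated counts held no variation between cells or libraries, so that variation was not covered. With 1 library per set no test was run. All 10 genes are named in each comparison, and for each list up to 2 genes at either end with at least 100 UMIs. Promoters were taken from RefSeq (GRCm38.p6); 4 genes had none in the table used here. Alternatives covered scaling, cell weights, doublets, gate, filter, depth and the EGFP and Mki67 or Top2a limits. For thinned ratios, the EGFP limits and the EGFP and Mki67 or Top2a groups were set anew from the thinned counts. Thinned and unthinned sides of these ratios therefore held different cells.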

Additional observations from a re-analysis of the deposited data

Results flagged for a closer look

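For 9 ratios within a set the 2 sets lay on opposite sides of 0 with both intervals leaving out 0, which is given as a value only, since with 1 library per set the difference was not tested. In luminal cells, EGFP-high over EGFP-low, the log2 ratio of set 2 minus that of set 1 was 0.97 for Myc, 1.17 for Cdk4 and 0.98 for Cdk6. It was 1.25 for Cdkn1a, 4.25 for Cdkn2a and -4.14 for Ccnd2. The Cdk6 ratio itself was -0.28 in set 1 and 0.70 in set 2. The Cdkn2a value rests on 4 UMIs in EGFP-low cells of set 2, and Ccnd2 had a mean under 5 CPM in that set. In basal cells the same difference was 1.53 for Cdkn1c, -0.43 in set 1 and 1.10 in set 2, which rests on 16 UMIs in EGFP-low cells of set 2. In luminal cells with against without a Mki67 or Top2a UMI it was -2.43 for Ccnd2, from 1.13 in set 1 and -1.30 in set 2, where its mean was under 5 CPM. It was -0.83 for Cdkn1c, from 0.48 and -0.35. The set 1 values of both changed sign without cells holding both Krt4 and Ly6d.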

How the results depend on the processing

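No paired analysis was possible because there was 1 library per barcode set. Of 868 alternative values of the log2 ratios 727 stayed inside the counting interval of the reported ratio. A further 125 left it, and 16 took the opposite sign to a reported ratio whose interval left out 0. Another 24, counted among the 727 and 125, took the opposite sign to a ratio whose interval spanned 0. Of 186 alternatives of ratios past 2-fold, 167 stayed past it in the same direction. The gate that kept Dcn was added after the data were seen. Counting error, 1 library per set and few UMIs (4 for Cdkn2a in EGFP-low luminal cells of set 2) limit these values, and the cause of each change was not tested.

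The 16 values of opposite sign to a ratio whose interval left out 0 were these. With against without a Mki67 or Top2a UMI in luminal cells of set 1, Ccnd2 came to -0.29 with the stricter gate and -0.61 without Krt4+ Ly6d+ cells, and Cdkn1c to -0.10 without those cells. When 2 or more UMIs were asked for, Myc came to 0.017 and Cdkn1c to -1.10. Thinning brought Ccnd3 to -0.11 in set 2. For luminal EGFP-high over EGFP-low cells of set 2, thinning brought Cdkn1b to -0.47. For basal cells, set 2 over set 1, Cdkn1c came to -0.34 when every cell weighed the same, -0.011 with the stricter gate and -0.14 when thinned. For basal EGFP-high over EGFP-low cells, thinning in set 1 brought Ccnd3 to -0.032 and Cdkn1b to 0.0080, and in set 2 Cdkn1c came to -0.055 with the stricter gate and Cdkn2a to -0.48 when every cell weighed the same. Set 2 over set 1, thinning brought Cdkn1a to -0.10 in EGFP-high and Cdkn1b to 0.34 in EGFP-low luminal cells.

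Counts of genes past 2-fold moved most with the filter. Without it, the counts over all genes were 7079 instead of 2422 between sets in luminal cells, 6781 instead of 2178 in EGFP-high and 4370 instead of 1293 in EGFP-low luminal cells, and 3500 instead of 758 in basal cells. They were 2373 instead of 544 and 7843 instead of 2286 for luminal EGFP-high over EGFP-low cells of sets 1 and 2, and 1684 instead of 311 for basal cells of set 1. With against without a Mki67 or Top2a UMI they were 2674 instead of 150 in set 1, 1870 instead of 238 in set 2, 3058 instead of 292 in EGFP-low cells of set 1 and 1752 instead of 219 in EGFP-high cells of set 2. A mean of at least 20 CPM gave, in the same order, 1306, 1153, 672 and 306, then 266, 1159 and 150, then 46, 79, 86 and 75, and 226 instead of 1080 for basal EGFP-high over EGFP-low cells of set 2. Thinning gave 753 in set 2 and 735 in its EGFP-high cells for the Mki67 or Top2a comparison and 662 for the basal EGFP comparison of set 1. Asking for 2 or more UMIs gave 737, 403 and 374 in set 1, set 2 and EGFP-high cells of set 2.

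Of the 10 genes, the luminal EGFP comparison of set 1 had 3 past 2-fold, 1 with the stricter gate and 0 at 20 CPM. The basal EGFP comparison of set 2 had 2, and 1 with the stricter gate, when thinned or at 20 CPM. Basal cells between sets had 1, then 2 with doublets kept or every cell weighing the same, and 0 when thinned. EGFP-high luminal cells between sets had 4, and 2 at 20 CPM. The Mki67 or Top2a comparison had 1 in set 1, then 0 when every cell weighed the same, with the stricter gate, without Krt4+ Ly6d+ cells or at 20 CPM, and 4 at 2 or more UMIs. In set 2 and in its EGFP-high cells it had 0, and 1 at 2 or more UMIs or without the filter.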
